A study of Mus musculus with 28 samples.

Results

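The measurement described is how much the transcriptional response of mouse calf muscle to contraction differed between muscle lacking the kinase LKB1 and wild-type muscle. For each gene it is the contracted-minus-rested difference in knockout minus the contracted-minus-resting difference in wild type. It drew on all 28 samples of the series and on 8389 of the 16593 genes named on the array, those with a probe over an intensity of 24 in at least 7 of 28 samples. A gene was represented by its brightest probe.

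All animals were FVB females aged 4 months, and the tissue was the whole gastrocnemius, plantaris and soleus complex. The 4 groups of 7 samples were wild type at rest, wild type taken straight after contraction, skeletal-muscle-specific LKB1 knockout at rest and the same knockout straight after contraction. Contraction was evoked in situ by stimulating the sciatic nerve for 15 min. The labels do not give the promoter that drove deletion, nor whether samples with equal numbers came from 1 animal, so the p-values reflect only how these samples vary, which may be technical. Values are log2 of background-corrected Illumina bead array intensities with an offset of 50 added. A difference of 1 is about a 2-fold change for bright probes and a larger fold change for dim ones. Below, "response" means a contracted-minus-resting difference on that scale.

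LKB1, encoded by Stk11, phosphorylates and switches on AMPK and the AMPK-related kinases, and AMPK responds to the fall in energy charge of working muscle. Contraction also raises cytosolic calcium and activates mitogen-activated protein kinases. Those signals induce immediate-early genes, such as Fos and Egr1, within minutes and without new protein synthesis, through serum response factor at CArG boxes and through CREB and AP-1 at their own sites.

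Stk11 was measured first, as a check of the labels. Its level was 10.32 ± 0.20 (SD, n = 7) in resting and 10.45 ± 0.16 in contracted wild type, against 8.96 ± 0.32 in rested and 8.97 ± 0.22 in contracted knockout. The highest knockout sample, at 9.32, lay below the lowest wild-type sample, at 10.10, so the genotypes did not overlap. The Stk11 response differed by -0.11 between genotypes (SE 0.18). Fast-fibre genes, the markers of most of this muscle, summed to between 277699 and 377084 intensity units in each sample, whereas slow-fibre genes were low in wild-type contracted sample 4, knockout rested sample 4 and knockout contracted sample 4. Their mean log2 level there was 10.19, 10.10 and 11.09, against a median of 12.28 over the 28 samples. Lymphocyte markers were high in 5 samples, which were wild-type resting 4 and 5, wild-type contracted 7, knockout rested 4 and knockout contracted 5. Several list medians turned or moved without either set of samples. Many of these, though not all, are given with and without them.

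Promoters of 3 of the genes with the largest differences are shown because immediate-early induction is read through short sites close to the start. Each is the 200 bases before a RefSeq start on GRCm38.p6, 5′ to 3′ along the gene's own strand, with motif matches in capitals. The searched motifs were TGACG on both strands, TGANTCA and the CArG box.
Fos, chr12:85473690-85473889, plus strand: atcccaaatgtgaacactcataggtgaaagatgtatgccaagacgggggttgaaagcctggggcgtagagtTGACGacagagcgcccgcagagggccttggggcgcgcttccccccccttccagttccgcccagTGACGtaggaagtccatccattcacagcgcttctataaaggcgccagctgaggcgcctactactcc
Zfp36, chr7:28379229-28379428, minus strand: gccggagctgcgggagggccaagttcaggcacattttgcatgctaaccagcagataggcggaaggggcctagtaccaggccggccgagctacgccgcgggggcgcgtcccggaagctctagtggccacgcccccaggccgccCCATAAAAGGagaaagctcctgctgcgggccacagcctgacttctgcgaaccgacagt
Sphk1, the second of 5 starts, chr11:116531637-116531836, plus strand: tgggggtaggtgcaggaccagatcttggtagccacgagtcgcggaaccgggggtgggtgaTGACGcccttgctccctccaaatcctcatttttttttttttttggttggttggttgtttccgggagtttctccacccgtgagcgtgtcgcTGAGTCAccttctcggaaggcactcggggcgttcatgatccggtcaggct
The Fos window held TGACG at -129 and at -66. The Zfp36 window held a CArG box at -58, and the Sphk1 window held TGACG at -140 and TGAGTCA at -50. Among all 32851 windows of this length, 15.7% held TGACG, 5.48% held TGANTCA and 1.18% held a CArG box. The windows were picked after the matches were seen. The third Sphk1 start, close by, held the same TGAGTCA, at -124 from that start, and a different TGACG at -37. Starts 1, 4 and 5 of Sphk1 had 0 matches. Nfil3 and Atf3 had 1 match each, and Ier3, Slc10a6, Tmem51 and Irgm2 had 0. Rrad and Socs2 had no promoter entry, and Egr1 was not searched. Sites farther than 200 bases from a start were not looked for in any gene.

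Across the 8389 genes, limma called 0 genotype differences of the contraction response (0%), and the lowest Benjamini-Hochberg adjusted p was 1.00. An unadjusted p under 0.05 was reached by 52 genes (0.62%), 31 of them (0.37%) with a higher and 21 (0.25%) with a lower response in knockout. With genotype and sample number as a block, again 0 genes were called (0%, lowest adjusted p 1.00), and 203 (2.42%) had an unadjusted p under 0.05. These 203 comprised 126 higher (1.5%) and 77 lower (0.918%) in knockout and included all 52. With no true difference and uniform p-values the expected share under 0.05 is 0.05 of the genes, and both shares lay below it. The p-values may thus be conservative, for a reason that was not tested, and 0 calls do not show equal responses. The difference itself had a median of -0.00 over all genes, and its central 95% of genes ran from -0.24 to 0.28.

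The width of the intervals shows which differences the arrays could have missed. The 95% interval lay within 1 of 0 on the log2 scale for 7953 genes (94.8%), and within 0.5 for 4564 (54.4%). With the block it lay within 1 for 8223 genes (98%). For dim probes a value of 1 on this scale is more than 2-fold, so larger fold changes of dim genes could have been missed. The median SE of the difference was 0.19, and 0.14 with the block. At the offset used, large differences were nearly all towards a higher response in knockout. Of the 50 genes whose difference exceeded 0.5 in size (0.596%), 44 were higher in knockout and 6 lower, and the 2 genes beyond 1 (0.0238%), Rrad and Fos, were both higher. Over all genes the difference was above 0 in 48.8%. These are counts of estimates, not of genes that passed a test.

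**Figure D1:**
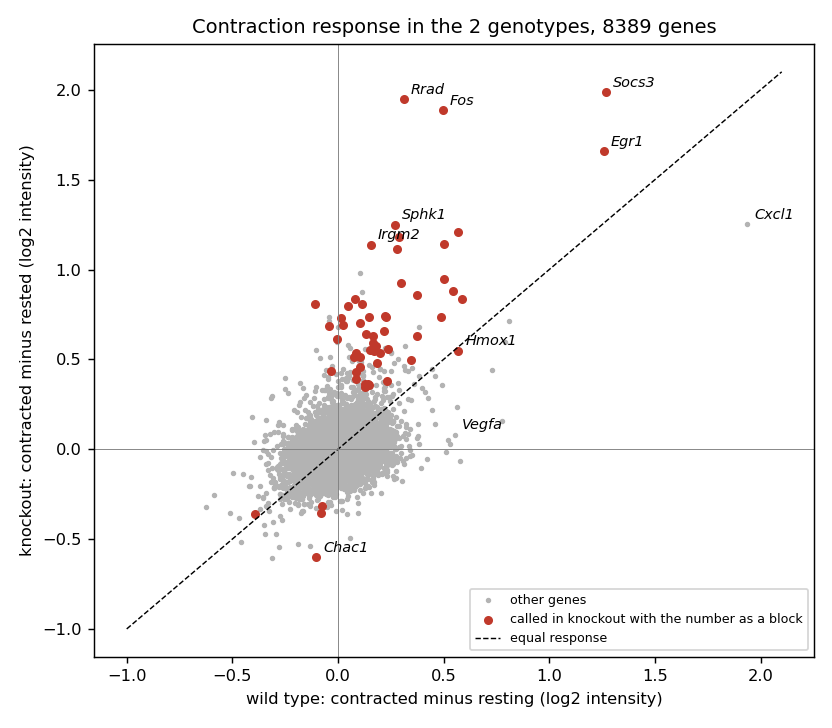
Contraction response of each of 8389 genes in wild type (x axis) and knockout (y axis), both as contracted minus resting log2 intensity; red points are the 57 genes called in knockout with the sample number as a block and the dashed line marks equal responses. Rrad (0.31 and 1.95) and Fos (0.49 and 1.89) lie far above the line, Egr1 (1.26 and 1.66) and Socs3 (1.27 and 1.99) nearer to it, and Cxcl1 (1.94 and 1.25) below it.

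Sphk1, encoding sphingosine kinase 1, which makes the lipid signal sphingosine 1-phosphate, had the smallest p of any gene. In wild type its level had a lowest, median and highest value of 7.87, 8.07 and 8.50 at rest and 7.99, 8.45 and 8.60 after contraction. In knockout the corresponding values were 7.63, 7.68 and 8.32 at rest and 8.20, 9.28 and 9.93 after contraction. Resting and contracted samples overlapped in wild type across most of their range, while in knockout only contracted sample 2, at 8.20, fell below the highest rested sample. The response was 0.27 in wild type and 1.25 in knockout, a difference of 0.98 (SE 0.25, limma p = 0.000628, adjusted p = 1.00, exact permutation p = 0.00466). With the block its 95% interval was 0.48 to 1.48. The level was higher after contraction in 7 of 7 number-matched knockout differences and in 5 of 7 wild-type ones, and 7 of 7 above 0 was seen for 1.32% of all genes in knockout and 0.56% in wild type. The exact permutation test is two-sided and divides these 14 numbered differences between the genotypes, its smallest possible p being 0.000583. It was run on each of the 73 named genes with no adjustment. The test treats the 14 differences as interchangeable between genotypes. Wild-type samples of equal number did not all deviate together, so some wild-type differences may join unrelated samples.

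Fos encodes the AP-1 subunit c-Fos. Its level ran from 6.27 through a median of 6.49 to 7.48 in resting wild type, with the lower values close to the dim end. In contracted wild type it ran from 6.47 through 7.08 to 8.47. In knockout it ran from 6.97 through 7.19 to 8.75 at rest and from 7.24 through 9.50 to 11.23 after contraction. The groups overlapped in both genotypes, and contracted knockout samples were the most spread, with an SD of 1.51 against 0.72 in contracted wild type. The response was 0.49 in wild type and 1.89 in knockout, a difference of 1.39 (SE 0.65, 95% interval 0.06 to 2.73, limma p = 0.0417, exact permutation p = 0.0128). Leaving out 1 sample at a time moved it between 1.08 and 1.74.

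Rrad encodes a small GTPase that binds the beta subunit of voltage-gated calcium channels and lowers their current. Wild-type levels were close to the dim end, with 6.17, 6.61 and 6.98 as lowest, median and highest at rest and 6.13, 6.53 and 8.14 after contraction. Knockout levels were 6.60, 8.12 and 10.26 at rest and 7.08, 11.58 and 11.88 after contraction. Rested knockout samples thus already spread well above most wild-type samples, and 4 of the contracted ones lay above 11 while samples 2 and 5 stayed near 7. The difference of the responses was the largest of all genes, at 1.64, with a wide interval that included 0 (SE 0.93, 95% interval -0.27 to 3.54, limma p = 0.0894, exact permutation p = 0.00816). With the block the interval was 0.71 to 2.57. Leaving out 1 sample at a time moved the Rrad difference between 1.34 and 2.14.

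Zfp36 encodes tristetraprolin, which binds AU-rich elements and speeds the decay of cytokine mRNAs. Its level was 10.62, 11.21 and 11.88 (lowest, median, highest) in resting wild type, 10.53, 11.70 and 12.05 in contracted wild type, 10.34, 11.20 and 11.88 in rested knockout and 11.52, 12.34 and 12.90 in contracted knockout. Wild-type groups overlapped almost fully, and in knockout only the top of the rested range met the bottom of the contracted one. The difference of the responses was 0.89 (SE 0.35, 95% interval 0.17 to 1.62, limma p = 0.0175, exact permutation p = 0.0245), from 0.29 in wild type and 1.18 in knockout.

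Ier3, an immediate-early gene linked to cell survival, followed the same order, with responses of 0.28 and 1.12 and a difference of 0.84 (SE 0.39, limma p = 0.0417, exact permutation p = 0.0344). Contracted knockout samples spanned 10.09 to 12.04 and contracted wild-type samples 9.47 to 10.81. Rested knockout samples spanned 9.59 to 10.90 and resting wild-type samples 9.23 to 10.05. Slc10a6, a carrier of sulphated steroids, had responses of 0.11 and 0.88 and a difference of 0.76 (SE 0.28, limma p = 0.0119, exact permutation p = 0.0361). Its contracted knockout samples ran from 8.66 to 10.08 and its contracted wild-type samples from 7.93 to 9.08. At rest they ran from 8.16 to 9.18 in knockout and from 7.90 to 8.57 in wild type. A second Slc10a6 probe gave a difference of 0.61.

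**Figure D2:**
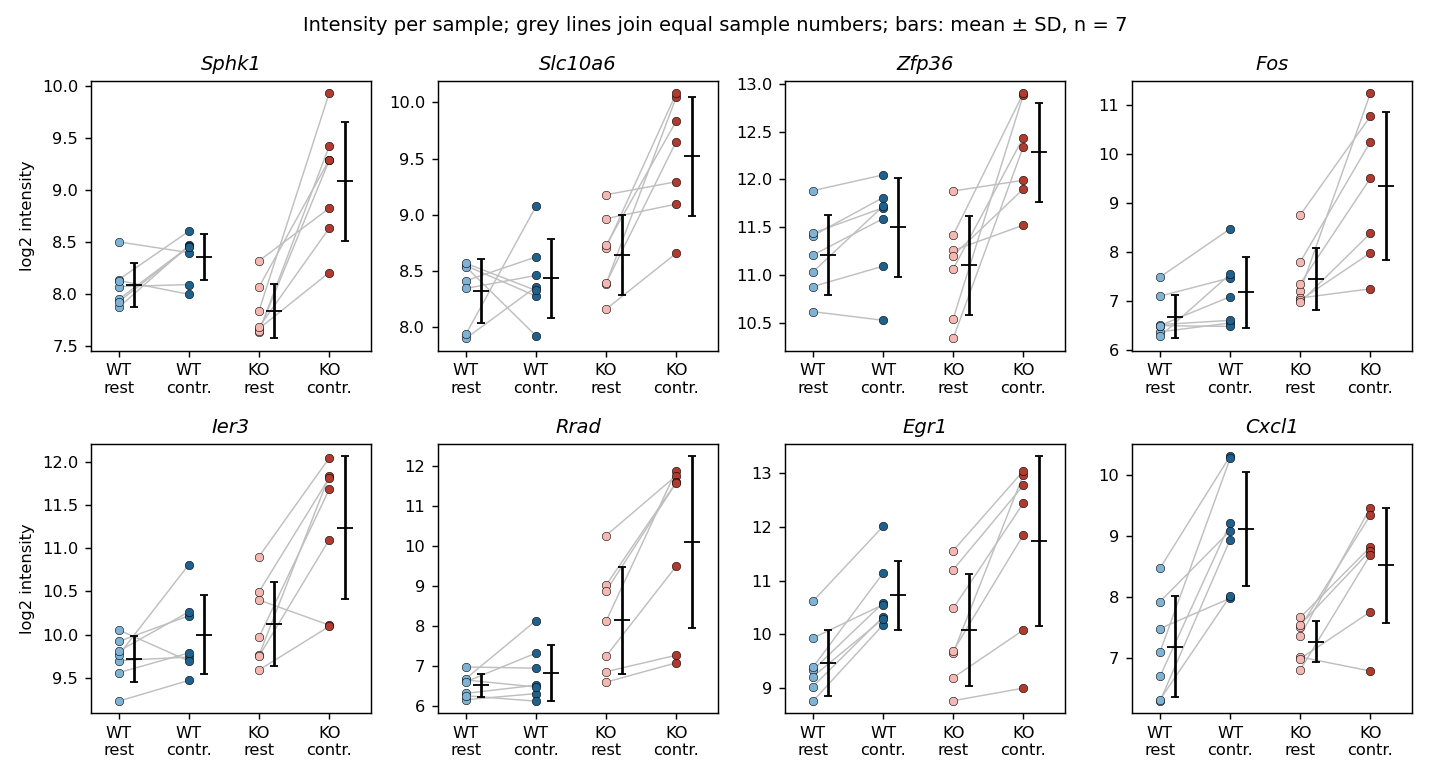
Log2 intensity of 8 genes in each of the 28 samples (y axis), by group on the x axis (WT, wild type; KO, knockout; rest and contr., before and after contraction); grey lines join equal sample numbers and bars are mean ± SD, n = 7. Contracted knockout samples reach 9.93 for Sphk1, 11.23 for Fos and 11.88 for Rrad, with 2 low samples in Rrad, while for Cxcl1 the highest samples, up to 10.32, are contracted wild type.

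The low contracted knockout samples were the same ones in several of these genes. Samples 2 and 5 measured 7.24 and 7.97 for Fos, 7.27 and 7.08 for Rrad, and 9.00 and 10.08 for Egr1, a zinc-finger factor of the immediate-early class. The other 5 contracted knockout samples lay between 8.37 and 11.23 for Fos, between 9.49 and 11.88 for Rrad and between 11.85 and 13.04 for Egr1. Adipocyte markers, of which 10 of 14 were measured, had summed intensities of 50169 and 58726 in these samples against 17494 to 23205 in the other 5. Over the groups that sum ranged from 28400 to 44989 in resting wild type, 18194 to 40518 in contracted wild type, 20369 to 38927 in rested knockout and 17494 to 58726 in contracted knockout. The 6 measured neutrophil markers summed to 1119 and 2635 in samples 2 and 5 and to between 293 and 617 in the other 5. Leaving out contracted sample 2 gave a difference of 1.74 for Fos and 2.11 for Rrad, and leaving out contracted sample 5 gave 1.62 and 2.14. Without contracted sample 1, the highest of its group for both genes, the differences fell to 1.08 and 1.34. Rested knockout samples 2 and 5 also had the highest adipocyte sums of their group, at 38927 and 38053 against 20369 to 27120. The lowest rested knockout sample was number 2 for Egr1 (8.77), 5 for Rrad (6.60) and 7 for Fos (6.97). The part of these cell types in the low values was not tested.

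Other genes among the 20 with the smallest p had a higher response in knockout by smaller amounts. Nfil3, a leucine-zipper repressor that acts on the circadian clock, had levels of 11.11 to 12.19 at rest and 10.91 to 11.72 after contraction in wild type, against 10.45 to 11.53 and 11.10 to 11.75 in knockout. Its difference was 0.59 (SE 0.23, limma p = 0.0166, exact permutation p = 0.00641), with all 7 knockout differences above 0 and 3 of the wild-type ones. Tmem51 differed by 0.72, Cpne8 by 0.65, Mzt2 by 0.62, the vasopressin receptor gene Avpr1a by 0.40, the metalloprotease gene Adamts20 by 0.40 and the endothelin receptor gene Ednrb by 0.36. Second probes gave smaller differences, of 0.30 for Cpne8, 0.17 for Adamts20 and 0.02 for Ednrb.

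The 10 others had a lower response in knockout, all by less than 0.5 at the offset used. They were Zfp251 at -0.39, Zfp82 at -0.37, Foxk1 at -0.36, Arpc5l at -0.35, Slc15a4 at -0.35, Sbno1 at -0.34, Dok7 at -0.33, Psmd9 at -0.32, Bloc1s3 at -0.29 and Hoxc13 at -0.27, with limma p from 0.012 to 0.0262. In each of the 10 the wild-type response was above 0 and the knockout response below 0. Dok7, which activates the receptor kinase MuSK at the neuromuscular junction, had responses of 0.17 and -0.16. Foxk1, a forkhead factor expressed in myogenic progenitors, had 0.23 and -0.13. The size of several differences depended on the background step. With a floor at the dim limit in place of normexp, Dok7 stood at -0.84, Foxk1 at -0.78, Sbno1 at -0.78, Bloc1s3 at -0.63 and Psmd9 at -0.13, and with a normexp offset of 16 Zfp82 stood at -0.58, Psmd9 at -0.52 and Hoxc13 at -0.43. On the positive side the floor gave 1.00 for Cpne8, 0.94 for Avpr1a and 0.91 for Adamts20.

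Contraction within each genotype shows what the difference is made of. In wild type limma called 0 genes (0%, lowest adjusted p 0.394), with 89 (1.06%) at an unadjusted p under 0.05 (3.85% with the block). In knockout it called 1, Sphk1 (0.0119%, response 1.25, SE 0.18, adjusted p = 0.00134), with 170 (2.03%) at an unadjusted p under 0.05 (5.23% with the block). Equal numbers in knockout deviated together, which was not so for every pair in wild type. With the number as a block 57 knockout genes were called (0.679%), of which 53 rose (0.632%) and 4 fell (0.0477%), and in wild type 1 rose (0.0119%), the neutrophil chemokine gene Cxcl1. A gene called in 1 genotype and not in the other is not thereby shown to differ, and the difference test above called none.

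Beside Sphk1, the largest blocked rises in knockout were in Socs3 (1.99, SE 0.31), Rrad (1.95, SE 0.31), Fos (1.89, SE 0.30), Egr1 (1.66, SE 0.24), Junb (1.21, SE 0.23), Zfp36 (1.18, SE 0.21), Cish (1.14, SE 0.19), Irgm2 (1.14, SE 0.22) and Ier3 (1.12, SE 0.21). Socs3 and Cish are feedback inhibitors of cytokine receptor signalling, and Junb is an AP-1 subunit. The 4 that fell were Chac1 (by 0.60), a glutathione-degrading target of ATF4, and Klhl38, Cyp27a1 and Tmem204. In wild type, whose responses did not enter that choice, the 53 genes had a median response of 0.17, from -0.11 to 1.27, against a median of 0.68 in knockout, which the choice itself fixed as high. The wild-type response had the same sign in 49 of the 53 and in 4 of the 4 that fell, where over all 8389 genes the responses shared their sign in 59.4%. Across genes the responses correlated with a Pearson r of 0.39 and a Spearman rho of 0.29, given as a description of genes that are not independent replicates.

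Several genes with large responses in both genotypes had intervals that included 0 and were wide. Egr1 levels had medians of 9.34 and 10.56 at rest and after contraction in wild type, and of 9.69 and 12.44 in knockout. Its responses of 1.26 and 1.66 differed by 0.40 (SE 0.74, 95% interval -1.12 to 1.92), and with the block the interval was -0.32 to 1.12. Leaving out 1 sample moved the Egr1 difference between 0.18, without rested knockout 2, and 0.86, without contracted knockout 2. Socs3 had medians of 7.28 and 8.35 in wild type and 8.27 and 11.83 in knockout, and its difference was 0.72 (95% interval -1.09 to 2.53, with the block -0.21 to 1.65). Without contracted knockout 2 the Socs3 difference was 1.22 and without rested knockout 5 it was 0.47. For Junb the responses were 0.57 and 1.21 with an interval of -0.86 to 2.14 (with the block -0.05 to 1.32), and the Junb difference of 0.64 was 0.24 without resting wild type 1. For Atf3, a stress-induced leucine-zipper factor, they were 0.59 and 0.84 with -0.69 to 1.19 (with the block -0.25 to 0.75), and the Atf3 difference of 0.25 was 0.04 without contracted knockout 1 and 0.49 without contracted knockout 2. The haem oxygenase gene Hmox1 had nearly equal estimates, 0.57 and 0.55.

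Cxcl1 had the most negative difference of all genes. Its wild-type level was 6.29, 7.10 and 8.47 (lowest, median, highest) at rest and 7.98, 9.09 and 10.32 after contraction, and its knockout level was 6.80, 7.36 and 7.67 at rest and 6.79, 8.77 and 9.47 after contraction. In wild type all 7 numbered differences were above 0 and in knockout 6 were, the exception being sample 2. The responses of 1.94 and 1.25 differed by -0.68 (SE 0.57, 95% interval -1.85 to 0.48, limma p = 0.239, exact permutation p = 0.168). Without contracted knockout 2 the Cxcl1 difference was -0.39, and without the lymphocyte-high samples it was -0.38. In the other direction it was -0.90 without resting wild type 1 and -1.04 with a floor at the dim limit.

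Vegfa, which encodes a growth factor for blood vessels, had medians of 9.44 and 10.03 in wild type and of 8.64 and 9.00 in knockout. Its responses were 0.55 and 0.08, and the difference was -0.47 (SE 0.33, 95% interval -1.14 to 0.19, limma p = 0.156, exact permutation p = 0.165), with -0.36 on a second probe. Without rested knockout 3, the highest of its group, the Vegfa difference was -0.27, and without contracted wild type 5 it was -0.58. Nr4a3, an orphan nuclear receptor gene induced by exercise, lay between 6.31 and 6.74 in all 14 knockout samples. These values are close to the dim end, where a response is hard to see. In wild type it ran from 6.35 to 7.51 at rest and from 6.85 to 7.89 after contraction, so each contracted wild-type sample lay above every knockout sample. Its difference was -0.35 (SE 0.21, 95% interval -0.77 to 0.08, limma p = 0.104, exact permutation p = 0.0583), with a blocked interval of -0.68 to -0.01. The Nr4a3 difference was -0.14 without the lymphocyte-high samples and -0.67 with the floor. Chac1 differed by -0.50 (95% interval -1.28 to 0.28, with the block -0.84 to -0.16), by -0.30 without rested knockout 2 and by -0.68 without contracted knockout 2.

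Among regulators of metabolism the estimates were modest. Ppargc1a, the coactivator of mitochondrial biogenesis, had medians of 9.72 and 9.88 in wild type and 8.94 and 9.60 in knockout, and a difference of 0.43 (SE 0.25, 95% interval -0.09 to 0.94, with the block 0.08 to 0.77). With the block it rose in knockout by 0.59 (limma adjusted p = 0.0297). Irs2, an adaptor of the insulin receptor, differed by 0.49 (95% interval -0.45 to 1.42, with the block 0.08 to 0.89), and Pdk4, the kinase that inhibits pyruvate dehydrogenase, by 0.27 (95% interval -0.34 to 0.88). Hspa1a, an inducible heat shock protein gene, had responses of 0.38 and 0.68.

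**Figure D3:**
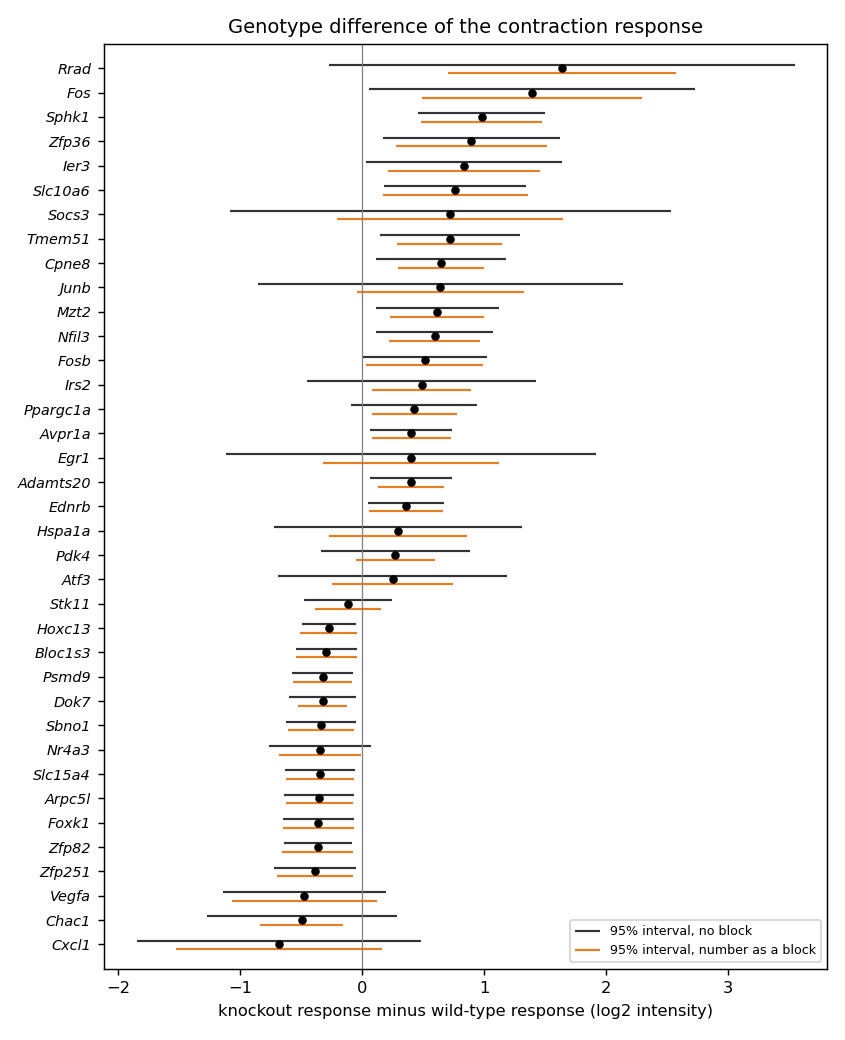
Knockout response minus wild-type response (x axis, log2 intensity) for the named genes with the smallest p and the genes fixed by name; points are estimates, black lines 95% intervals without and orange lines with the sample number as a block. Rrad (-0.27 to 3.54) and Fos (0.06 to 2.73) have the highest estimates, Socs3 (-1.09 to 2.53) and Egr1 (-1.12 to 1.92) wide intervals that include 0, and Cxcl1 (-1.85 to 0.48) the lowest estimate.

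Of the 34 gene lists, none had a member that passed the adjusted test, so lists are described by counts and medians beside the median of -0.00 and the 48.8% above 0 over all genes. Of the 22 measured genes on the immediate-early list 19 had a difference above 0, with a median of 0.21. The list holds transcription factors and also Zfp36 and Ier3. Its median responses were 0.11 in wild type and 0.22 in knockout. An unadjusted p under 0.05 was reached by 4 of the 22, Fos, Fosb (0.51), Ier3 and Zfp36, against 0.62% of all genes. Nr4a3 had the lowest difference of the list. Contraction with the block raised 8 of the 22 in knockout, against 0.632% of all genes, and 0 in wild type, against 0.0119%. These counts do not test the difference, and Egr1, not called in wild type, had a response above 0 in 7 of 7 numbered differences there. The list of MAPK phosphatases and feedback inhibitors, most of which dampen that kinase signal, was above 0 in 11 of 13 with a median of 0.12. Its member of smallest p was Gadd45g, an activator of stress kinase signalling, whose responses of -0.35 in wild type and 0.04 in knockout differed by 0.39 (limma p = 0.0459, exact permutation p = 0.0507). Spred1, an inhibitor of Ras signalling to MAPK, differed by 0.43.

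In the cytokine branch 14 of 18 interferon-related genes were above 0, with a median of 0.09. Irgm2 and Igtp, immunity-related GTPases, differed by 0.98 (95% interval -0.08 to 2.05) and 0.77 (95% interval -0.10 to 1.65). With the block these intervals were 0.32 to 1.65 and 0.26 to 1.29, with an adjusted p of 1.00 for each by limma. Irgm2 levels ran from 8.44 to 9.34 over all 14 wild-type samples, from 8.54 to 10.30 in rested knockout and from 8.53 to 11.53 in contracted knockout. The JAK-STAT list was above 0 in 14 of 23 with a median of 0.04, led by Socs2 at 0.92 (95% interval -0.00 to 1.84, with the block 0.40 to 1.43, limma p = 0.0511, exact permutation p = 0.00583). Its 23 members held 3 that rose in knockout with the block, against 0.632% of all genes. Of 16 NF-kB genes 11 were above 0 with a median of 0.02, and of 16 cytokine and chemokine genes 12 were, with a median of 0.08.

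Lists of muscle function and metabolism lay at or slightly under 0. Calcium handling and excitation genes were above 0 in 10 of 31, with a median of -0.10 that ranged from -0.39 for Jph2, which ties the tubules to the calcium store, to 1.64 for Rrad. Glucose uptake, glycolysis and glycogen genes were above 0 in 6 of 23, with a median of -0.10, from -0.35 for muscle glycogen phosphorylase (Pygm) to 0.34 for the glucose carrier Slc2a1. LKB1, AMPK and related kinases were above 0 in 7 of 20, with a median of -0.07, and the lowest was the AMPK subunit gene Prkab2 at -0.41 (95% interval -0.90 to 0.08, with the block -0.75 to -0.06). Respiratory chain and ATP synthase genes had a median of 0.02, with 26 of 49 above 0 and a range from -0.15 to 0.34. Fatty acid genes had a median of 0.02 (15 of 25), citric acid cycle genes -0.03 (10 of 25), PGC-1 and mitochondrial regulators -0.01 (12 of 26) and heat shock genes -0.00 (11 of 22). The sign of several of these medians was not stable. Without the 5 lymphocyte-high samples the LKB1 and AMPK list stood at 0.03 with 10 of 20 above 0, calcium handling at -0.05 with 15 of 31, PGC-1 regulators at 0.05 with 17 of 26, heat shock genes at 0.09 with 13 of 22, fatty acid genes at -0.03 with 11 of 25, citric acid cycle genes at 0.01 with 13 of 25 and the respiratory chain at -0.03 with 22 of 49. With the 3 slow-fibre-low samples left out, the LKB1 and AMPK list stood at -0.11 with 4 of 20 above 0 and calcium handling at -0.15 with 5 of 31. The glucose list was at -0.12 with 7 of 23 and at -0.13 with 7 of 23 in these fits. In the 13 lists not named here or below the median ran from -0.07 for circadian clock genes to 0.09 for atrophy ligases, FOXO and growth signalling. Among them the list of stretch, denervation and neuromuscular junction genes moved most, from 0.08 to 0.29 without the lymphocyte-high and to -0.03 without the slow-fibre-low samples. Cytosolic ribosomal proteins turned from -0.04 (6 of 18 above 0) to 0.07 (15 of 18) without the slow-fibre-low samples. Without the lymphocyte-high ones, metallothioneins and oxidative stress genes turned from 0.05 to -0.03 and red blood cell markers from 0.03 to -0.13.

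The largest list median belonged to the slow-fibre genes and depended on 3 samples. All 10 measured members had a difference above 0, from 0.18 for Casq2 to 0.61 for the slow troponin gene Tnnc1, with a median of 0.40. The wild-type median response was -0.27 and the knockout one 0.15. Once the 3 samples named above were left out, the median was -0.05 and 3 of 10 were above 0. Immediate-early genes had a median of 0.18 without those 3 samples, with 18 of 22 above 0, and of 0.28 without the 5 samples high in lymphocyte markers, again with 18. Markers of other cells had medians of 0.14 for neutrophils (5 of 6), 0.11 for fibroblasts and matrix (15 of 20), 0.10 for macrophages (11 of 12), 0.10 for lymphocytes (7 of 10), 0.05 for adipocytes (7 of 10) and -0.01 for endothelium (8 of 16). These medians depended on both sets of samples. Without the 5 lymphocyte-high samples the median was -0.07 for neutrophils (1 of 6 above 0), -0.06 for lymphocytes (3 of 10), -0.24 for adipocytes (2 of 10), -0.09 for endothelium (4 of 16), 0.06 for macrophages (9 of 12) and 0.04 for fibroblasts (11 of 20). Once the 3 slow-fibre-low samples were left out instead, it was 0.53 for lymphocytes (10 of 10), 0.33 for adipocytes (10 of 10), 0.08 for endothelium (11 of 16), 0.18 for neutrophils (4 of 6) and 0.16 for macrophages (11 of 12). In whole muscle, fewer cells of a type and less RNA per cell cannot be told apart.

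**Figure D4:**
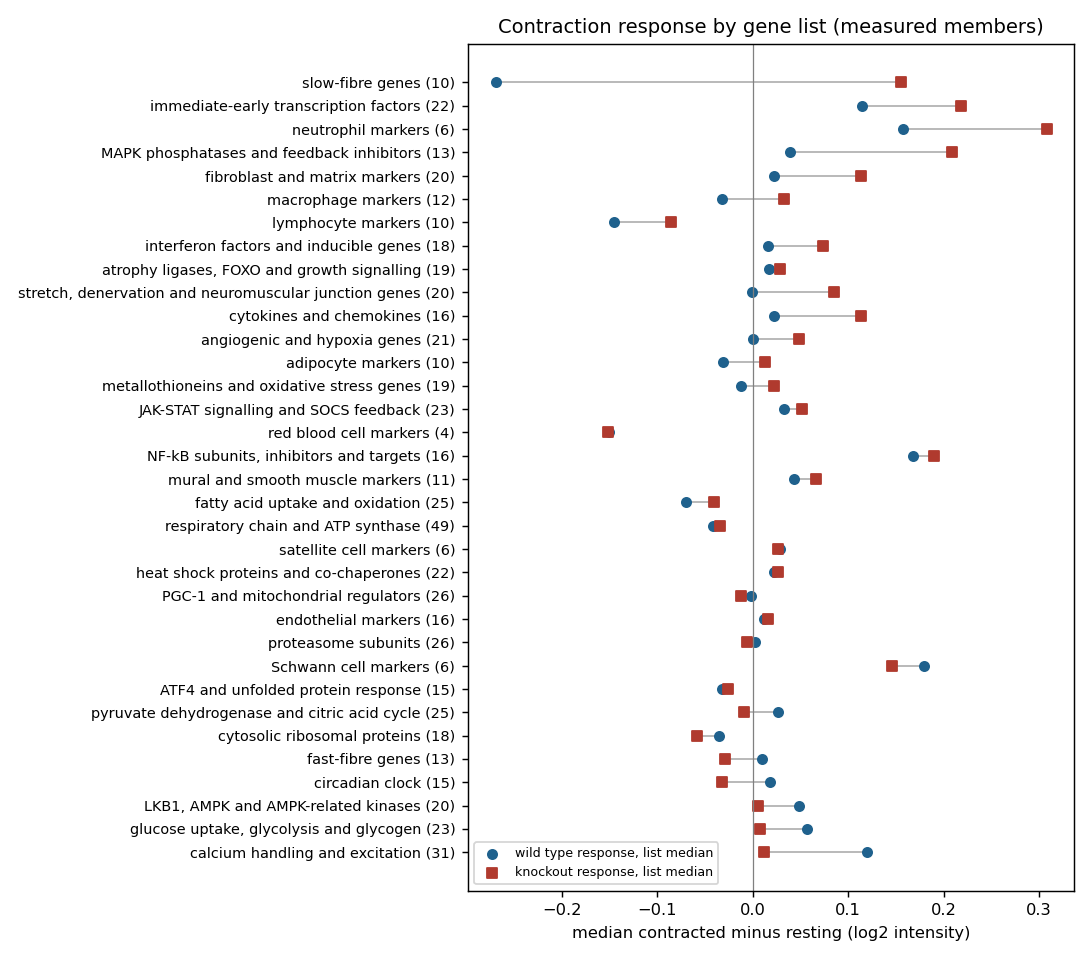
Median contraction response (x axis, contracted minus resting log2 intensity) of the measured members of each of 34 gene lists, in wild type (blue circles) and knockout (red squares), with member numbers in brackets and lists ordered by their median difference of responses. Slow-fibre genes (-0.27 and 0.15) and immediate-early genes (0.11 and 0.22) stand at the top and calcium handling genes (0.12 and 0.01) at the bottom.

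Il6 and Maff exceeded the dim limit in 2 samples each and Myc in 0, so none of them could be compared. Precision was limited by the 7 samples per group, and contracted knockout had the lowest of the 4 group array weights, 0.843, followed by rested knockout at 0.897.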

How the data were processed

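RNA had been extracted with TRIZOL and RNeasy columns, amplified, biotin-labelled and hybridised to Illumina BeadChips, per the labels' protocols. The deposited intensity values of 25697 probes were used; R 3.1.2, lumi 3.0 and limma 3.1 are named, with no role, in the submitters' processing notes. Values from -36.1 to 50215, 27.2% below 0, with column medians of 12.6 to 13.1, show background subtraction and between-array normalization before deposit, so a shift of most genes together would be hidden. A non-normalized table with 28 intensity columns was not used because its column numbers do not settle the samples. An annotation gave 1 symbol for 23978 probes, several for 0 and none for 1719, and 23962 matched RefSeq by Entrez ID.

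Values were corrected with normexp (offset 50), which shrinks differences of dim probes, set on log2 and fitted with limma 3.58.1 (lmFit, eBayes; R 4.3.3, jsonlite 2.0.0) with 4 group means. Probes over 24 in 7 of 28 samples were kept, 11723 in all. Calls needed an adjusted p under 0.05 over 8389 genes. Fits were tested on simulated data.

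Named genes were the 20 of smallest p, the 2 of smallest p in each of 22 pathway lists, a fixed set, and the 10 largest rises and 5 largest falls among called genes, here also of the blocked fit, which was decided after its values were seen. The members and lists were chosen with earlier results of these data known. Of 793 listed genes 592 were measured. Equal numbers paired rested and contracted knockout samples by the correlation of their deviations from the group means (0.37 to 0.85, 7 of 7 over 0.1), but not wild-type ones (-0.04 to 0.55, 5 of 7). Genotype and number together formed the block of 14 levels. Alternatives changed the offset, floor, quantile step, dim limit, probe choice, weights, block and samples.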

Additional observations from a re-analysis of the deposited data

Results flagged for a closer look

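Samples standing apart from their group of 7 were looked for in 148 combinations of a gene and a group. The genes were those of smallest p, those of the fixed set and those called without the block. Named genes chosen only from a pathway list, such as Irgm2 and Socs2, were not checked. Of the combinations, 10 (6.76%) had 1 sample whose gap to the nearest other exceeded Dixon's 95% critical value. Chance marks about 1 in 20. In resting wild type these were Sphk1 in sample 6 (8.50, nearest 8.14), Hoxc13 in sample 2 (6.39, nearest 6.55), Nfil3 in sample 1 (12.19, nearest 11.38) and Ednrb in sample 4 (9.98, nearest 10.26). In contracted wild type they were Psmd9 in sample 3 (6.21, nearest 6.55), Sbno1 in sample 3 (7.42, nearest 7.16), Ppargc1a in sample 5 (9.10, nearest 9.77) and Stk11 in sample 4 (10.10, nearest 10.47). In knockout they were Vegfa in rested sample 3 (10.06, nearest 8.93) and Zfp82 in contracted sample 7 (6.19, nearest 6.52). The cause was not tested.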

How the results depend on the processing

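The count of genotype differences stayed at 0 under 15 of 16 alternatives and when each of the 28 samples was left out in turn (lowest adjusted p 0.226). Unadjusted counts then ran from 34, without contracted knockout 3, to 107, without contracted knockout 7. The exception was limma with array weights per array, with 2 calls, Sphk1 (1.36, SE 0.23, adjusted p = 0.0158) and Slc10a6 (1.18, SE 0.22, adjusted p = 0.047). With the replicate block 0 differences were called, 1 gene in wild type and 57 in knockout. As a random block these counts were 0, 1 and 33, and with the block in knockout only the knockout count was 28. The knockout count of 1 became 4 with a floor at the dim limit in place of normexp and 4 without the lymphocyte-high samples. It ran from 1 to 8 with 1 sample left out, being 8 without contracted sample 2, 4 without contracted 5, 4 without contracted 7 and 2 without rested 2. In wild type the count was 0 in each of those fits. Most named genes were chosen by their p in these data and most alternatives left out 1 sample, so kept signs were likely in advance. Of 3131 differences of named genes under alternatives, 3129 kept their sign, the exceptions being Stk11 (0.05 without lymphocyte-high samples) and Atf3 (-0.13 with the floor). The cause of these changes was not tested. The random block, the block in knockout only and the sample sets left out were added after the data were seen. Dim probes close to the background limit what can be seen of low genes.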

Other observations

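Rcan1, an inhibitor of calcineurin induced by calcium signalling, is given here because it had the smallest blocked p of the genotype difference; it was singled out after its values were seen. Its responses were -0.04 in wild type and 0.68 in knockout, a difference of 0.72 (SE 0.61). Irf1, a transcription factor of interferon signalling, had responses of 0.10 and 0.98 and a difference of 0.88 (SE 0.51), and was likewise named after its values were seen.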
